A study of Mus musculus with 2 samples.

Results

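The enzymes that build the sugar chains of mucins and other glycoproteins were examined in the colon of mice with and without the prostaglandin receptor EP4 in the intestinal epithelium. Genes were chosen by symbol: those that start with Galnt, B3gnt, B3galt, B4galt, B4galnt, C1galt, Gcnt, Mgat, St3gal or St6gal, or with Fut and a digit. The array held 85 such genes, and 63 were kept because 1 array or both showed a signal well above background, of 14676 genes kept by the same limit in the whole series. Both arrays carried RNA of whole colon of C57BL/6 mice at 8 weeks of age, labelled with Cy3, and there was 1 array per genotype. The control was Villin-Cre, and the other genotype was Villin-Cre; EP4flox/flox (EP4 cKO). Both genotypes therefore carried the Cre transgene, whose Villin promoter is active in the epithelium of the intestine, and in EP4 cKO the Cre recombinase cuts out the floxed part of Ptger4, which encodes EP4. Stroma, muscle and immune cells of the colon keep the gene. By the labels, 3 pools of colon RNA went into each array, so no spread between mice can be given, no difference has a replicate check, and every value describes these arrays.

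The gel-forming mucins of the colon are made in goblet cells, and most of their mass is sugar. In the Golgi, a GalNAc transferase starts an O-glycan on serine or threonine, core enzymes add the next sugars, further transferases lengthen or branch the chain, and fucose, sialic acid or GalNAc usually closes it. N-glycans are attached in the endoplasmic reticulum and are trimmed and then branched in the Golgi by the Mgat enzymes. The chains give the mucus layer its charge and water, and they carry the epitopes that bacteria and lectins bind.

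Intensities of each array were scaled to a trimmed mean of 2500, called normalized signal below, and each ratio divides the EP4 cKO signal by the Villin-Cre signal. The probe with the strongest mean signal stands for its gene. Where a probe passed the background limit of the scanner software on 1 array alone, its dim signal, where beneath the floor of that array, was raised to it; the floor is the weakest signal of any probe well above background (125 in Villin-Cre, 57.8 in EP4 cKO). Such a fold is a bound, and a bound not above 1 was set to a log2 ratio of 0. Of 56593 gene probes, 45.4% passed this limit in Villin-Cre and 51.6% in EP4 cKO. The 2 probes of Ptger4 had normalized signals of 6227 (Villin-Cre) and 5661 (EP4 cKO), and of 393 and 592. Neither fell past 2-fold, and whether they lie in the deleted part is not given in the sources used here, so the genotype of the arrays was not checked by them.

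The 63 glycosyltransferase genes differed little between the arrays as a set, and 11 of them differed by more than 2-fold. Gcnt1, Gcnt2, Mgat4c and St3gal4 had more than 2-fold higher signal in EP4 cKO, and 7 genes (St6gal1, Fut9, B3gnt8, B4galnt3, Galnt17, Galntl5 and Mgat4d) had more than 2-fold lower signal. The 4 higher genes are 6.35% of the 63, against 4.89% of all 14676 genes, and the 7 lower genes are 11.1%, against 7.98%. Both shares lay near those of all genes at this limit. The median log2 ratio was -0.05 for the glycosyltransferase genes and -0.10 for all genes, and other scalings that moved the median of all genes by 0.10 to 0.13 moved that of the glycosyltransferases to between 0.02 and 0.11. Among the 58 genes measured on both arrays, 4 were past 2-fold higher and 4 lower, 6.90% each, against 4.05% and 6.26% of all such genes. By sign, 28 of the 63 genes (44.4%) were above 0 and 34 (54.0%) below, against 36.3% and 57.5% of all genes. With a limit of 1.5-fold, 11 genes (17.5%) were higher and 15 (23.8%) lower, against 9.86% and 18.7% of all genes, and with a limit of 3-fold 2 (3.17%) were higher and 4 (6.35%) lower, against 2.21% and 3.73%. Of the 63 genes, 58 were well above background on both arrays, 3 on the Villin-Cre array alone and 2 on the EP4 cKO array alone, where the corresponding shares of all genes were 2.51% and 10.2%.

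**Figure D1:**
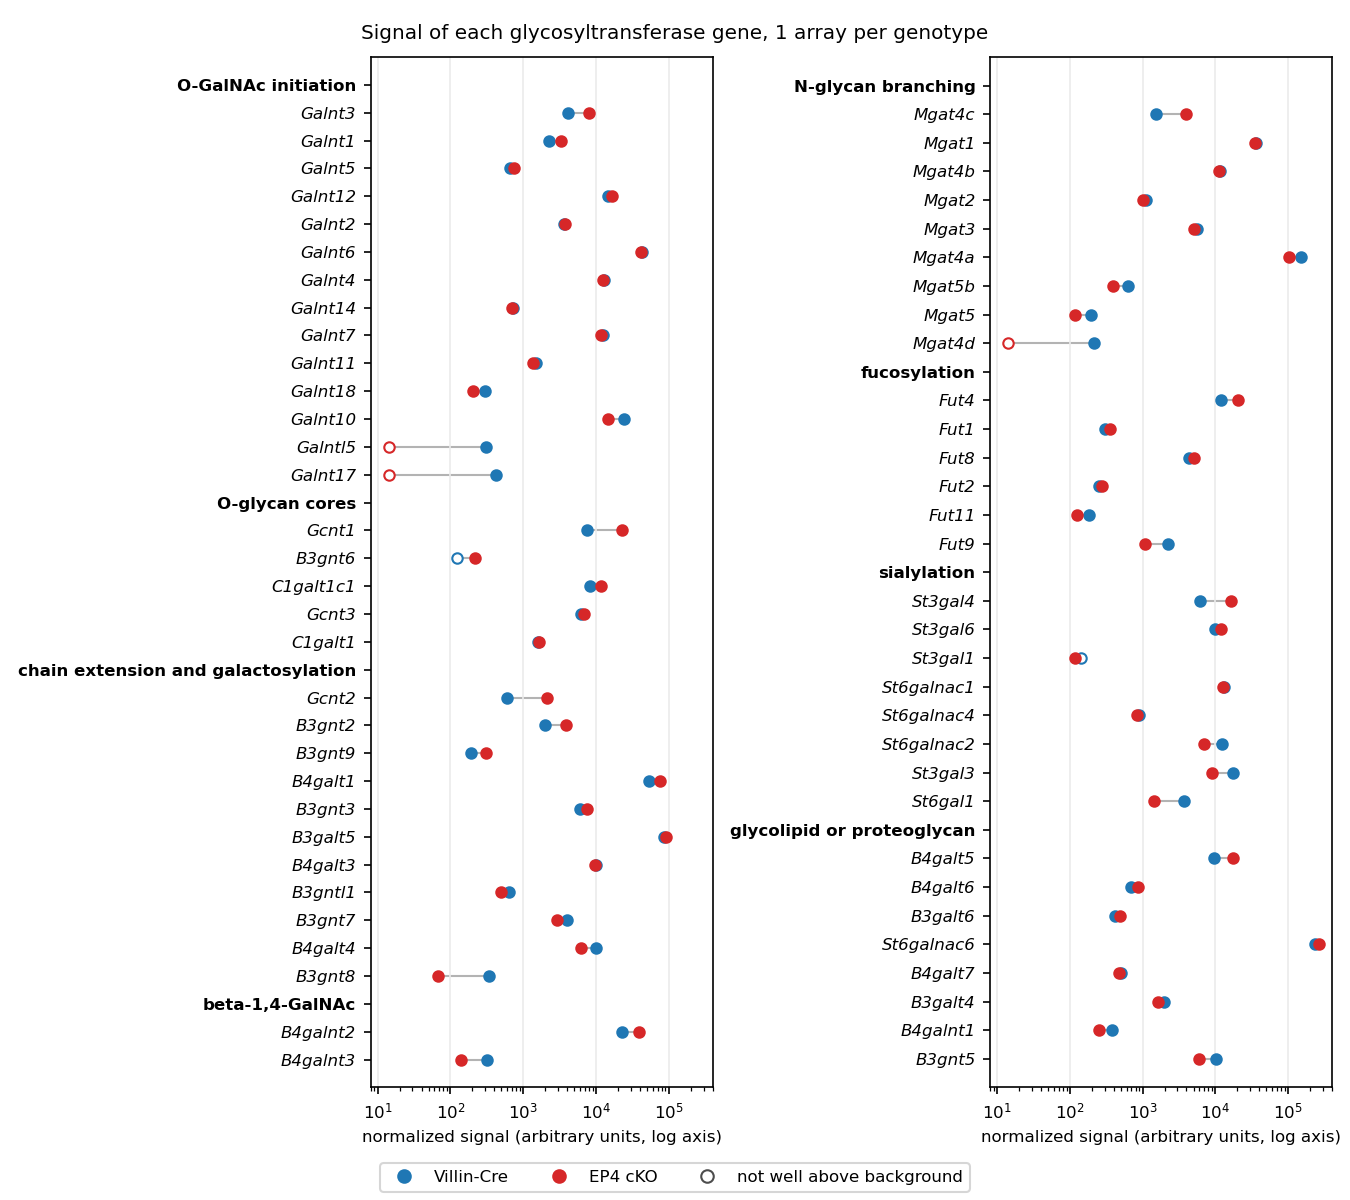
Normalized signal (x axis, arbitrary units, log axis) of the 63 glycosyltransferase genes by role, with 1 point per array (blue for Villin-Cre, red for EP4 cKO) and open points where the probe was not well above background. Most pairs of points overlap, and Gcnt1, Gcnt2, Mgat4c and St3gal4 show the widest gaps with EP4 cKO to the right.

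The genes that rose and those that fell overlapped in signal, but most of the lower genes were dim. The 4 higher genes had Villin-Cre signals between 589 and 7475. The 7 lower genes had Villin-Cre signals between 215 and 3643, and 5 of the 7 were under 450. Of these dim genes, Galnt17, Galntl5 and Mgat4d passed the background limit on the Villin-Cre array alone. Their ratios could therefore not be above 0, and the bins below leave them out. Low ratios were common among all dim genes. The genes measured on both arrays were divided by mean signal into 5 bins of 2561 genes, from 94.1 to 573 in the dimmest bin and above 13758 in the brightest. From the dimmest to the brightest bin, 3.4%, 4.3%, 3.83%, 3.4% and 5.35% of all genes were past 2-fold higher, and 16.2%, 7.54%, 3.83%, 2.03% and 1.68% past 2-fold lower, while their median log2 ratio climbed from -0.34 to -0.03. The 13 glycosyltransferases in the dimmest bin had a median of -0.55, with 0 past 2-fold higher and 2 lower, and the 11 in the brightest had a median of 0.18, with 1 higher and 0 lower. St6gal1 and Fut9 were the lower genes with Villin-Cre signal above 450.

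**Figure D2:**
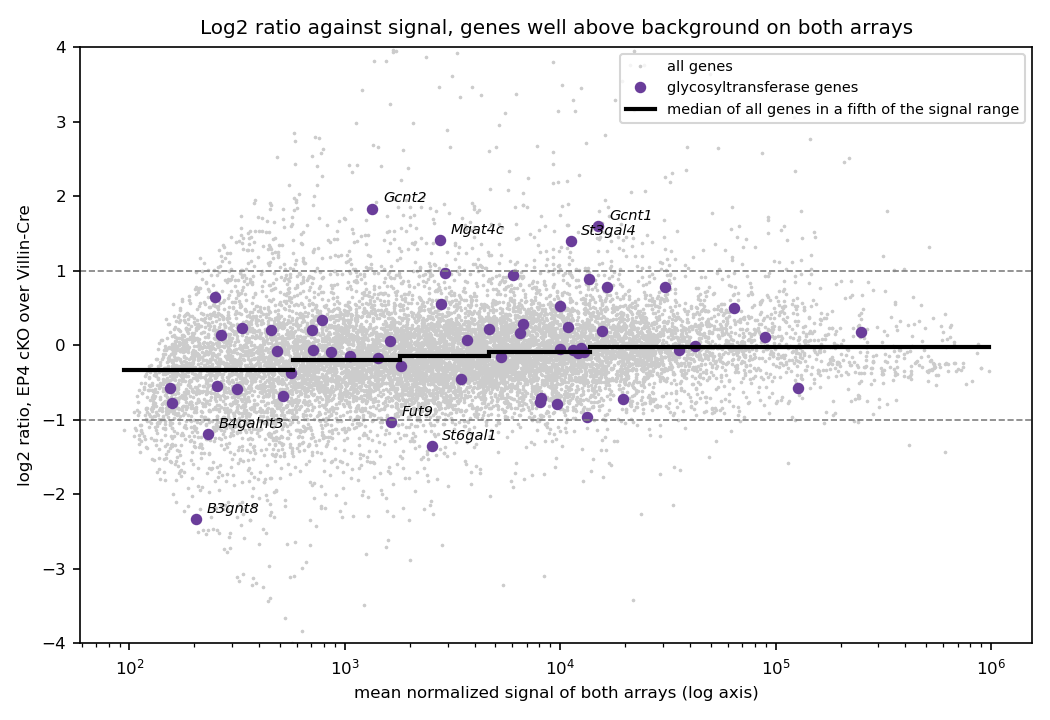
Log2 ratio of EP4 cKO over Villin-Cre (y axis, drawn from -4 to 4) against the mean normalized signal of both arrays (x axis, log axis) for genes that passed the background limit on both arrays, with all genes in grey, the 58 glycosyltransferase genes in purple, and black steps at the median of all genes in each of 5 signal bins. Dashed lines mark 2-fold, and the black steps climb from -0.34 to -0.03 with rising signal.

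Beside the larger log2 ratios a software error is given, which is the error that the scanner software estimates for the spots, carried to the log2 ratio. It covers the spot and not the mice, and ran from 0.20 to 0.36 over the 58 genes. Repeat spots of 278 other probes had a median SD of 0.035. Ratios were also computed with scaling to the 75th percentile, with loess, which removes the dependence of the ratio on signal, with a trimmed mean over all spots, with normexp, a model of the background, followed by quantile normalization, and with both arrays set equal at their E1A control spots.

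The genes that start O-GalNAc chains showed similar signal on both arrays for the most part. Of 14 Galnt genes, 12 were measured on both arrays and 0 of these were past 2-fold, with a median log2 ratio of -0.05 over the 14 that turned positive under 75th percentile scaling (0.11), loess (0.017) and a trimmed mean over all spots (0.067). Galnt6 had signals of 42299 in Villin-Cre and 41975 in EP4 cKO, and Galnt4, Galnt7, Galnt12, Galnt2, Galnt11, Galnt14 and Galnt5 lay between -0.18 and 0.20 on the log2 scale, although further probes gave -0.61 for Galnt7 and 0.82 for Galnt5. Galnt3, whose enzyme is known for glycosylating the hormone FGF23, had the highest ratio of the group, from 4112 to 7931 (log2 ratio 0.95, software error 0.20). That lies just inside 2-fold, and it passed 2-fold under 75th percentile scaling, loess and a trimmed mean over all spots. Galnt10, which acts on peptides that already carry GalNAc, was at 24492 and 14794 (-0.73), and its further probe gave -0.54. Galnt18 was at 303 and 207 (-0.55).

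The Galnt genes past 2-fold were both bounds. Galnt17 had a signal of 429 in Villin-Cre and 14.1, not well above background, in EP4 cKO, which is at least 7.41-fold lower. Galntl5, a relative of the family known from sperm, had 304 and 14.2, at least 5.25-fold lower. These bounds depended on the processing. Normexp with quantile normalization gave log2 ratios of -1.19 for Galnt17 and -0.71, within 2-fold, for Galntl5. Which of its steps moved them was not tested. Both Villin-Cre signals lie within 4 times the floor of that array, and a further pair of Galnt17 probes passed the background limit on neither array. Galnt1 was the gene whose probes measured on both arrays disagreed most. Its bright probe was at 2265 and 3330 (0.56) and its dim probe at 263 and 111 (-1.24), which point in opposite directions.

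The core enzymes of O-glycans had a median log2 ratio of 0.52 over 5 genes, of which 5 were above 0, as were 36.3% of all genes, and 1 was past 2-fold. B3gnt6 passed the background limit on the EP4 cKO array alone, so its ratio could not be below 0. Over the 4 core genes measured on both arrays the median was 0.35. All 4 were above 0, as were 37.0% of all genes measured on both arrays. C1galt1, which makes core 1 by adding galactose, was at 1587 and 1653 (0.06), and C1galt1c1, the chaperone that it needs (Cosmc), was at 8187 and 11780 (0.52). Gcnt1, the leukocyte-type enzyme that turns core 1 into core 2, rose from 7475 in Villin-Cre to 22609 in EP4 cKO, a 3.02-fold difference (log2 ratio 1.60, software error 0.20). Gcnt3, the mucin-type enzyme that makes core 2 and core 4 branches, was at 6131 and 6894 (0.17), and its further probe gave 0.06. B3gnt6, the core 3 enzyme of the colon, was well above background in EP4 cKO alone, at 122 and 221, at least 1.76-fold higher, and past 2-fold under loess (1.38). Gcnt1 has 1 probe above background, so its difference rests on that probe.

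Chains are lengthened by alternating GlcNAc and galactose, and here the genes lay on both sides of 0 (11 genes, median log2 ratio 0.11, 1 past 2-fold in each direction). Gcnt2, which adds the branches that turn the i antigen into the I antigen, had the highest ratio of the 63 genes, from 589 to 2098 (3.56-fold, log2 ratio 1.83, software error 0.22). Its other probes were near the floor: they were well above background in EP4 cKO alone, at 72.7 and 125, and at 64.6 and 104, and neither bound was above 1. One of these dim probes is assigned to the same RefSeq transcript as the bright probe. The mean over all Gcnt2 probes was a log2 ratio of 0.61, so the call of Gcnt2 rests on the bright probe.

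B3gnt2, the main enzyme that lengthens poly-N-acetyllactosamine, was at 1972 and 3862 (0.97), just inside 2-fold, and it was past 2-fold under the same scalings as Galnt3. B3gnt8, a poly-N-acetyllactosamine enzyme that acts on branched N-glycans, was at 340 and 67.6 (5.03-fold lower, log2 ratio -2.33, software error 0.36). That EP4 cKO signal lies close to the floor of 57.8, and normexp with quantile normalization left a log2 ratio of -0.91. Genes of the same step thus had ratios of either sign. B3gnt3, which extends core 1, was at 6078 and 7409 (0.29), and B3gnt7, an enzyme of keratan sulfate chains, was at 3981 and 2916 (-0.45). B3gnt9 (194 and 305, 0.65) and B3gntl1 (634 and 489, -0.38) were dim.

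Among the galactosyltransferases of these chains, B4galt1, the main enzyme of N-acetyllactosamine, was at 53165 and 74852 (0.49), with 0.11 from its further probe. B3galt5, which makes type 1 chains in the gut, was at 86336 and 92942 (0.11), and B4galt3 was at 10096 and 9769 (-0.05). B4galt4 was at 10146 and 6196 (-0.71). None of the 4 was past 2-fold. Of the enzymes that add GalNAc to the chain, B4galnt2, which makes the Sda antigen of the colon, was at 22615 and 38707 (0.78), with 0.53 from its further probe, while B4galnt3, which makes LacdiNAc, was at 322 and 141 (2.29-fold lower, log2 ratio -1.20, software error 0.29). B4galnt3 came within 2-fold under normexp (-0.56), loess (-0.80) and scaling to the E1A spots (-0.13).

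The promoters of the genes that rose were read for 3 motifs bound by factors of interferon and cAMP signalling, of which EP4 is known to drive the latter. RefSeq windows of GRCm38.p6 were at hand for 45 of the 63 genes, and the 250 bases before each start were searched on both strands for GAS (TTCNNNGAA), ISRE (GAAA, any pair of bases, GAAA) and CRE (TGACGTCA). Matches were found in 4 of 45 genes for GAS (B3galt5, B4galt1, Gcnt2 and Mgat2), 1 for ISRE (Galntl5) and 2 for CRE (B4galt3 and Galnt11), against 8.13%, 3.46% and 1.77% of all 27025 genes with a window. Of Gcnt1, Gcnt2, Mgat4c and St3gal4, which have 3, 3, 4 and 1 windows in the table, Gcnt2 alone held a match, in 1 of its 3 windows. That window (chr13:40886508-40886757, plus strand) is shown with the GAS match in capitals, 227 to 219 bases before the start, beside the single window of St3gal4 (chr9:35116865-35117114, minus strand), which held none of the 3 motifs.
Gcnt2: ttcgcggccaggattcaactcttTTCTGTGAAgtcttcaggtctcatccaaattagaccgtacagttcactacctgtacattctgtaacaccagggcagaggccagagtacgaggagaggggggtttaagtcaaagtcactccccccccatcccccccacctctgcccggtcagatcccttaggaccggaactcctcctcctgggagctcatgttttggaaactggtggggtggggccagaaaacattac
St3gal4: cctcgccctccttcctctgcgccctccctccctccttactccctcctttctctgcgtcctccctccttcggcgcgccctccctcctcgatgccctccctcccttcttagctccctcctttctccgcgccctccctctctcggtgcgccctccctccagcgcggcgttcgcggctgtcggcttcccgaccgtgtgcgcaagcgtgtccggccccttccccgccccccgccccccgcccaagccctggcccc
A match is a run of letters and not a bound site, and which of the Gcnt2 starts the bright probe reports on was not examined.

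The N-glycan branching genes had a median log2 ratio of -0.16 over 9 genes, of which 8 were below 0, as were 57.5% of all genes. That count depended on the scaling: it was 5 under 75th percentile scaling, 6 with a trimmed mean over all spots, 7 under loess and under normexp, and 1 under scaling to the E1A spots. The share of all genes below 0 under these alternatives is not given here, so the counts lack a background. The median of all genes rose as well, to 0.034 under loess, 0.90 under E1A scaling and 0 under the others. It was -0.10 at the scaling used in the text. Mgat1 (36298 and 34864, -0.06) and Mgat2 (1117 and 1007, -0.15), which start the first and second antenna, differed at this scaling by less than their software errors of 0.20 and 0.21. So did Mgat3, which adds the bisecting GlcNAc (5630 and 5028, -0.16), and Mgat4b (11667 and 11145, -0.07). Mgat4a, which adds a further branch, was at 152210 and 101980 (-0.58), and its further probe gave -0.12. Mgat5, the enzyme of the beta1,6 branch, was at 198 and 116 (-0.77), and Mgat5b at 635 and 397 (-0.68).

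Mgat4c, a relative of the Mgat4 branching enzymes, was the gene of this group that rose. Its bright probe went from 1512 to 4003 (2.65-fold, log2 ratio 1.40, software error 0.21), and its further probe from 947 to 2366 (1.32). It was the only one of the 4 higher genes with a further probe measured on both arrays, and both probes were past 2-fold. Mgat4d, known from testis as an inhibitor of Mgat1, was at 215 in Villin-Cre and 14.1, not well above background, in EP4 cKO, at least 3.72-fold lower, although normexp gave a log2 ratio of -0.66. Its further probe passed the background limit on neither array.

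The fucosyltransferases had a median log2 ratio of 0.18 over 6 genes, with 0 past 2-fold higher and 1 lower. Fut4 and Fut9 both make Lewis X type epitopes, and their ratios had opposite signs: Fut4 was at 12083 and 20744 (0.78), and Fut9 at 2205 and 1075 (log2 ratio -1.04, software error 0.21). Fut9 was 2.05-fold lower, just past the limit, and it came within 2-fold under 5 of the alternatives in processing and turned to 0.033 under scaling to the E1A control spots, a scaling that moved the median of all genes by 1.002. Its further probes were at 588 and 490 (-0.26), and at 111 and 121 with no fold above 1. Fut2, which makes the H antigen of colonic mucin, was at 253 and 279 (0.14), and Fut1 at 308 and 361 (0.23). Fut8, the enzyme of core fucose on N-glycans, was at 4311 and 5033 (0.22), and Fut11 at 184 and 124 (-0.57).

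The sialyltransferases included genes past 2-fold in both directions. St3gal4, which adds sialic acid to the galactose at chain ends in the alpha2,3 linkage, rose from 6145 to 16172 (2.63-fold, log2 ratio 1.40, software error 0.20). St6gal1, which adds it in the alpha2,6 linkage on N-glycans, fell from 3643 to 1429 (2.55-fold lower, log2 ratio -1.35, software error 0.20). St6gal1 had 1 probe above background, and its further probe passed the background limit on neither array. St3gal4 had 1 probe in all. St3gal3, another enzyme of the alpha2,3 linkage, was at 17604 and 9011 (-0.97), and its further probe gave 406 and 180 (-1.17), so that the mean of its probes was past 2-fold (-1.07). St3gal6 was at 9894 and 11752 (0.25) with -0.07 from its further probe. Genes for the alpha2,3 linkage therefore had ratios of either sign.

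Of the sialyltransferases that act on GalNAc, St6galnac1, which makes sialyl-Tn, was at 13309 and 12549 (-0.08). St6galnac2 was at 12188 and 7047 (-0.79), with -0.71 from its further probe, and St6galnac4 was at 885 and 832 (-0.09). St3gal1, which caps core 1, was near the floor, at 141 and 118, well above background in EP4 cKO alone and with no fold above 1. The median over the 8 genes was -0.09, and it became positive under 75th percentile scaling (0.035), loess (0.038) and a trimmed mean over all spots (0.014).

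**Figure D3:**
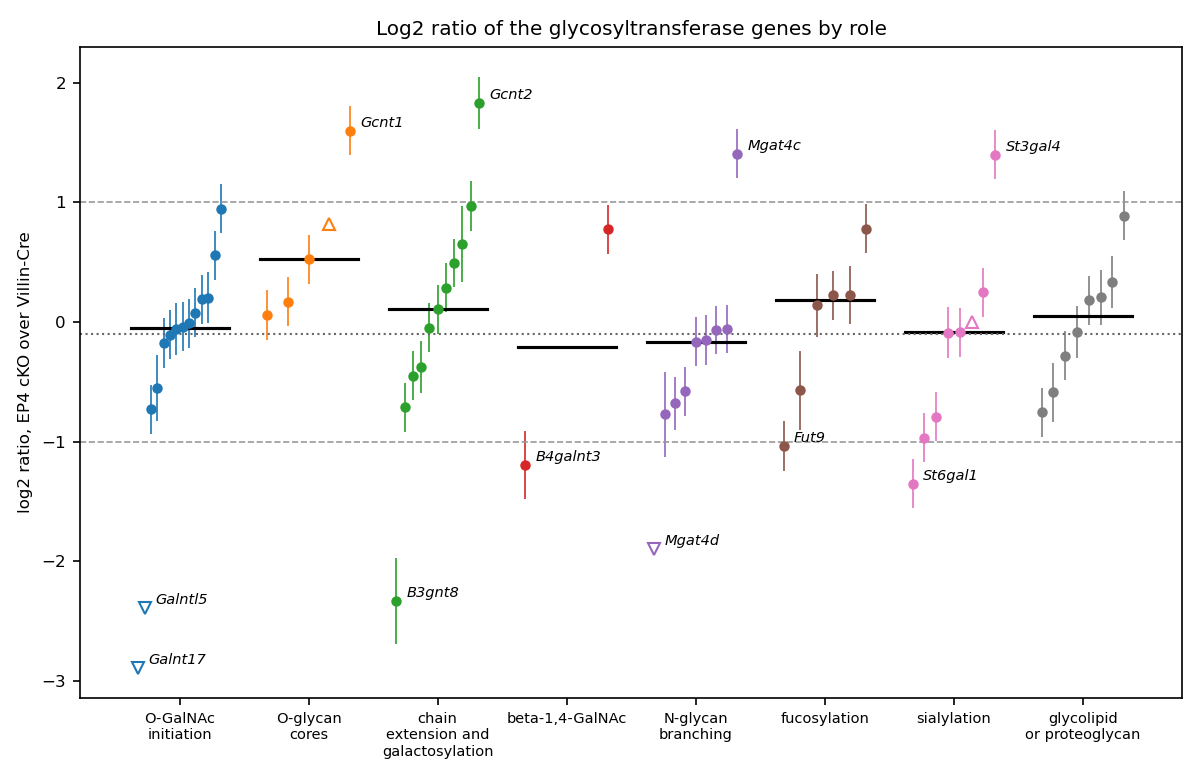
Log2 ratio of EP4 cKO over Villin-Cre (y axis) of each gene, grouped by role (x axis), with bars for the software error, open triangles for bounds, black lines at group medians, dashed lines at 2-fold and a dotted line at the median of all genes (-0.10). The O-glycan core group has the highest median, 0.52, which is 0.35 over its genes measured on both arrays. The 4 genes above the upper dashed line stand in different groups.

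The last group holds enzymes of glycolipids and proteoglycans that share the symbols. It had a median log2 ratio of 0.05 over 8 genes with 0 past 2-fold. B4galt5 (9519 and 17595, 0.89) and B4galt6 (690 and 869, 0.33) make lactosylceramide, and B4galt5 passed 2-fold under 75th percentile scaling (1.04) and a trimmed mean over all spots (1.002). B3gnt5, which begins the lacto series on that lipid, was at 10161 and 6019 (-0.76), and its further probes gave -0.21 and -1.46. B4galnt1 and B3galt4, enzymes of gangliosides, were at 379 and 253 (-0.59) and at 1995 and 1641 (-0.28). Further B4galnt1 probes were at 120 and 118, and at 90.5 and 89.2, above background in EP4 cKO alone. Neither had a fold above 1, and the mean over the B4galnt1 probes was -0.195. St6galnac6 was at 233754 and 265244 (0.18). B4galt7 and B3galt6, which build the linker of proteoglycans, had log2 ratios of -0.08 and 0.20.

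A further probe was well above background for 22 of the 63 genes, while 41 had 1 such probe. Over the 19 further probes measured on both arrays, the log2 ratio differed from that of the bright probe by a median of 0.24, and 13 differed by less than 0.5. Galnt1 had the largest gap, 1.80. The sign was opposite for Galnt1, Galnt6 and St3gal6. The background limit was passed on neither array by 22 genes, namely B3galt1, B3galt2, B3gnt4, B4galnt4, B4galt2, Fut10, the pseudogene Fut4-ps1, Fut7, Galnt13, Galnt15, Galnt16, Galnt9, Galntl6, Gcnt4, Gcnt7, Mgat4e, Mgat4f, St3gal2, St3gal5, St6gal2, St6galnac3 and St6galnac5.

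The genes that supply or surround these enzymes were listed by role, 135 genes in 8 lists, and 111 had a value. Of these, 3 (2.70%) were past 2-fold higher and 0 lower, against 4.89% and 7.98% of all genes. Genes of nucleotide sugar synthesis (21 with a value, median log2 ratio 0.09) included Pgm2, a phosphoglucomutase, at 1320 and 3423 (1.37), and the Golgi sugar carriers (10, median 0.11), early N-glycan processing (31, median -0.03), sulfation and O-acetylation (6 of 13 listed, median -0.10) and the glycosidases (12, median -0.08) had 0 past 2-fold. Among other glycosyltransferases (17, median -0.17), St8sia5, a sialyltransferase of gangliosides, was at 6378 and 13450 (1.08). Of the proteins that carry or bind the chains, 0 of 7 mucins were past 2-fold and Muc2, the gel-forming mucin of the colon, was at 222068 and 212341 (-0.06), while 1 of 7 galectins was, Lgals9, at 1191 and 9236 (2.95).

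Whole colon holds several cell types, and fewer cells of a type and less RNA per cell cannot be told apart here. Markers of cell types were summed over all listed genes of a type. The 8 goblet cell markers summed to 1522720 in Villin-Cre and 1949890 in EP4 cKO with a median log2 ratio of 0.01, and Clca1 (1.31) was the marker past 2-fold. Without Clca1 the sums were 1227190 and 1216460, since Fcgbp (0.64) and Agr2 (0.35) lay above 0 and Tff3 (-0.75), Zg16 (-0.23), Atoh1 (-0.13) and Muc2 (-0.06) below. The 6 epithelial markers summed to 1021720 and 1464540, and to 875149 and 953826 without Krt20, the marker past 2-fold (1.80). Their median log2 ratio was 0.29, with Epcam (0.56) and Vil1 (0.52) above it and Krt8 (0.05), Cdh1 (67618 and 62930, -0.10) and Cdx2 (-0.25) beneath. The 5 absorptive colonocyte markers summed to 489717 and 759809, and to 253415 and 286199 without Aqp8, which was just past 2-fold (1.003). Of the others, Ceacam1 (0.63), Slc26a3 (0.41) and Car4 (0.09) lay above 0 and Car1 (-0.42) below. Enteroendocrine markers (4 of 4 with a value) summed to 86991 and 41028, with Chga (-1.53), Neurod1 (-1.35) and Chgb (-1.22) past 2-fold lower, and crypt base markers (4 of 4) to 28020 and 15410, with Lgr5 past 2-fold lower (-1.09). Tuft cell markers (2 of 3) were near the floor, with Dclk1 at 140 and 142.

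Outside the epithelium, the 3 leukocyte markers summed to 1517 and 3390 and did not move together: Coro1a was past 2-fold higher (1.53), Ptprc was at 416 and 813 (0.97), and Laptm5 at 273 and 183 (-0.58). T cell markers (4 of 4) summed to 10114 and 11126, with Cd3e at -0.10 and Cd3g past 2-fold higher (1.28). B and plasma cell markers (2 of 5) summed to 353 and 354, with Cd79a, Ms4a1 and Mzb1 below the background limit on both arrays. Macrophage markers (2 of 4) summed to 5325 and 3245, with Csf1r at 4874 and 2817 (-0.79) and Adgre1 and Lyz2 below the limit. Smooth muscle markers (4 of 5) summed to 29669 and 45427, with Acta2 at 18006 and 27719 (0.62), Actg2 at 0.72 and Tagln at 0.38, and with Myh11 below the limit. Fibroblast markers (4 of 5) summed to 12599 and 287, all 4 past 2-fold lower, with Dcn at 6006 and 110 (-5.77) and Pdgfra below the limit. Endothelial markers (1 of 3) summed to 231 and 220, with Pecam1 at 172 and 152 (-0.18) and Cdh5 and Kdr below the limit. Of the neuronal markers, Elavl4 was at 1339 and 757 (-0.82), and Uchl1 was past 2-fold lower (-1.43). Gcnt1 and St6gal1 are also transcribed in leukocytes, and the part of these cell types in the glycosyltransferase ratios was not tested.

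The counts varied with the processing while some single genes stayed past 2-fold. Under 75th percentile scaling, loess, a trimmed mean over all spots and normexp, the log2 ratio ran from 1.54 to 1.75 for Gcnt1, from 1.28 to 1.56 for Mgat4c, from 1.32 to 1.55 for St3gal4 and from 1.61 to 2.01 for Gcnt2, all past 2-fold, and normexp alone of the 4 lowered them. The 75th percentile, all-spots and E1A scalings each raise every ratio measured on both arrays by the same amount. They therefore could not bring these 4 genes within 2-fold, whereas loess and normexp could have. Filters on dim probes and the mean over probes cannot alter Gcnt1 and St3gal4, which have 1 probe above background each. The mean over probes brought Gcnt2 within 2-fold (0.61). St6gal1 ran from -1.23 to -1.15 under the same 4 and was at -0.28 under scaling to the E1A spots. Under normexp with quantile normalization 2 genes remained past 2-fold lower, St6gal1 (-1.15) and Galnt17 (-1.19), as B3gnt8, B4galnt3, Fut9, Galntl5 and Mgat4d came within 2-fold.

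**Figure D4:**
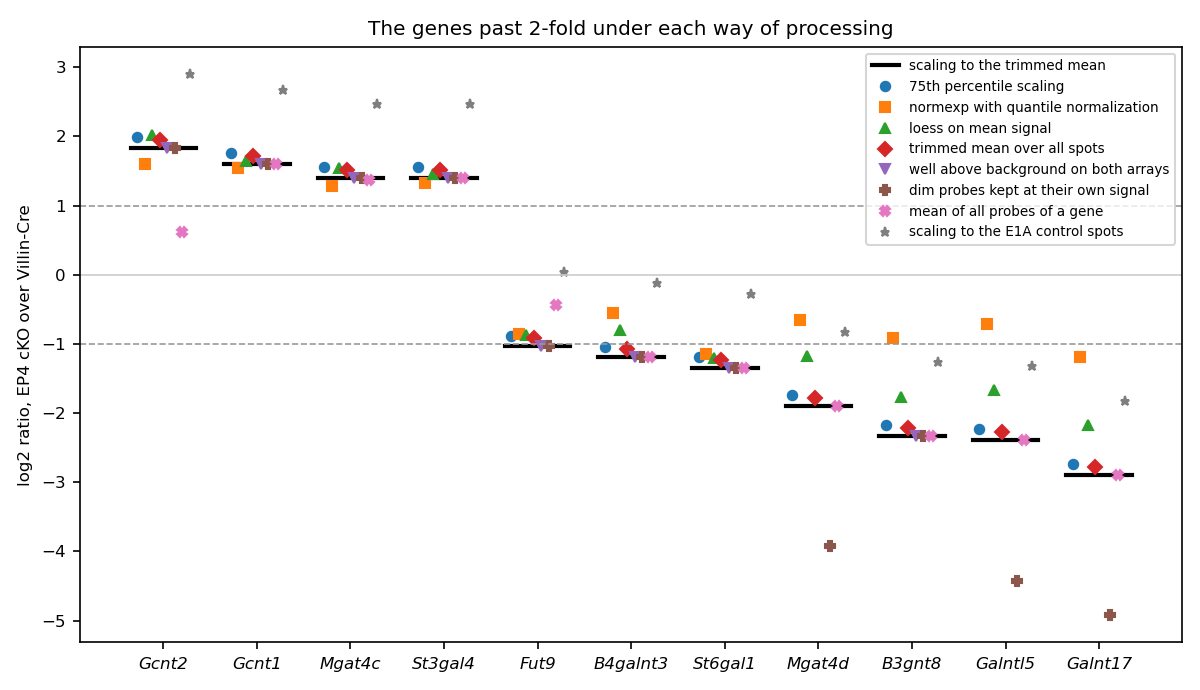
Log2 ratio of EP4 cKO over Villin-Cre (y axis) of the 11 genes past 2-fold (x axis) under each way of processing, with a black bar for the scaling used in the text, 1 symbol per alternative and dashed lines at 2-fold. Gcnt1, Mgat4c and St3gal4 keep all symbols above the upper line, while the symbols of the 7 lower genes spread across the lower line for B4galnt3, B3gnt8, Galntl5, Mgat4d, St6gal1 and Fut9, and stay beneath it for Galnt17.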

How the data were processed

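Total RNA of whole colon was labelled with Cy3 and hybridized to Agilent mouse arrays (62976 spots), 1 per genotype. The authors deposited scanner intensity values (Feature Extraction 12.0.3.1 per the file headers, 11.5.1.1 per the labels), with background subtracted and low values replaced by a small positive one, and not scaled between arrays. Control spots and outlier spots (147 and 126) were left out, spots of a probe were averaged, and each array was scaled to a trimmed mean of 2500 without 2% of the probes at each end, as in the methods, which multiplied the Villin-Cre array by 3.45 and the EP4 cKO array by 2.68. No spot was saturated. The number of arrays limits the precision. Probes were named through their RefSeq accession (GRCm38.p6 table); 32984 of 56593 (58.3%) matched a single gene, giving 22905 genes. The grid refers to an older build, so no gene coordinates are given, and promoter windows come from RefSeq.

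No test was possible with 1 array per genotype. All members may be named; those past 2-fold, bounds and those with discordant probes are given in full, of the pathway lists genes past 2-fold and Muc2, and of each marker list the first. Other markers named were chosen after their values were seen, and a few markers are not reported here. Members and lists were chosen with earlier results of these data known. Alternatives were 75th percentile scaling, normexp (offset 50) on median signal with quantile normalization, loess (span 0.3), a trimmed mean over all spots, genes above background on both arrays, dim probes at their own signal, the mean of all probes, and limits of 1.5-fold and 3-fold. Scaling to the 7 E1A control probes, and the difference between the medians of members and all genes, were added after seeing the data. Steps were tested on simulated data. Python 3.11.15, numpy 2.4.6, pandas 2.3.3, statsmodels 0.14.6, matplotlib 3.10.9, R 4.3.3 and limma 3.58.1 were used.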

Additional observations from a re-analysis of the deposited data

How the results depend on the processing

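No paired analysis was possible because each genotype has 1 array, and no replicate could be left out. The causes of the shifts were not tested. Signal near the floor limits 5 of the 7 lower genes, all but St6gal1 and Fut9. Of 11 genes past 2-fold, 10 were so in the same direction under 75th percentile scaling, 6 under normexp, 9 under loess, 10 under a trimmed mean over all spots, 8 on both arrays, 11 with dim probes at their own signal, 9 with the mean of probes and 7 under E1A scaling, which added 30 and turned Fut9 to 0.033. Median shifts of all genes were 0.10 (75th percentile, normexp, all spots), 0.13 (loess) and 1.002 (E1A). Higher and lower shares of all genes, 4.89% and 7.98%, became 6.42% and 6.28% (75th percentile), 4.10% and 2.71% (normexp), 7.80% and 4.96% (loess), 6.00% and 6.67% (all spots), 7.69% and 7.99% (dim probes) and 41.8% and 2.26% (E1A).

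Higher glycosyltransferases numbered 7 (75th percentile, loess, all spots), 34 (E1A), 11 (1.5-fold, 9.86% of all genes) and 2 (3-fold, 2.21%). Lower ones numbered 2 (normexp), 4 (both arrays), 3 (E1A), 15 (1.5-fold, 18.7% of all genes) and 4 (3-fold, 3.73%). Their median was 0.10 (75th percentile), 0.020 (normexp), 0.11 (loess), 0.057 (all spots) and 1.01 (E1A), and it exceeded that of all genes by 0.05, or by 0.020 (normexp), 0.10 (75th percentile), 0.11 (both arrays) and 0.11 (E1A). In the other lists, higher genes numbered 5 (75th percentile, loess), 67 (E1A), 9 (1.5-fold) and 1 (3-fold), and lower genes 1 (mean of probes) and 9 (1.5-fold).

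Role medians under 75th percentile, loess, all spots and E1A scaling were, in that order, 0.11, 0.017, 0.067 and 1.02 for O-GalNAc initiation, 0.68, 0.58, 0.64 and 1.59 for O-glycan cores, 0.26, 0.18, 0.22 and 1.18 for chain extension, -0.0064, -0.069, -0.048 and 0.91 for N-glycan branching, 0.34, 0.39, 0.30 and 1.25 for fucosylation, 0.035, 0.038, 0.014 and 0.90 for sialylation, and 0.21, 0.23, 0.16 and 1.12 for glycolipid and proteoglycan enzymes. Under normexp they were -0.0050 for initiation, 0.21 for chain extension, 0.23 for fucosylation, -0.038 for sialylation and 0.18 for glycolipid and proteoglycan enzymes. The core median was 0.35 on both arrays, that of sialylation -0.17 with dim probes at their own signal, and those of initiation and fucosylation -0.12 and 0.13 with the mean of probes.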
